A study of Rattus norvegicus with 105 samples.

Results

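The 20 arrays described here hold RNA from the frontal cortex of rats in which the ventral hippocampus, and not the cortex itself, was the treated site. They were taken by their labels alone, which assign 11 arrays to tetrodotoxin (TTX) and 9 to sham in the ventral hippocampal TTX experiment, out of 105 arrays in the series. The other arrays cover a ventral hippocampal lesion with its own sham group and chronic neuroleptic drugs, and of these only the lesion experiment, with 12 lesion and 10 sham arrays, is used, as the most similar comparison. Each array measured total RNA on an Affymetrix rat chip with 31042 probe sets once 57 control probe sets were left out, of which 18625 were bright enough to test, and 10153 genes were represented by their brightest probe set. For the dose, timing and number of TTX infusions, the strain, sex and age of the rats, the content of the sham procedure, and whether 1 array stands for 1 animal, nothing is given in the sources used here. The p-values below therefore measure only the spread between these arrays, which may in part be technical.

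Tetrodotoxin is a toxin that plugs the pore of most voltage-gated sodium channels and so stops neurons from firing action potentials while leaving them in place, whereas a lesion destroys tissue. The ventral hippocampus sends excitatory, glutamate-releasing axons to the medial frontal cortex, which places the cortex downstream of the blocked cells. Cortical neurons adjust many transcripts to their input, among them fast activity-regulated transcription factors, ion channels and transmitter receptors, and the genes are ordered below by these roles. All values are log2 signals after quantile normalisation within the experiment, so a difference of 1 is a factor of 2, and ± after a difference is its standard error. In bulk tissue, fewer cells of a type and less RNA per cell cannot be told apart.

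Before any comparison of groups, the arrays fell apart along the numbers in their titles. The first principal component, which held 21.8% of the variance of the tested probe sets, separated the arrays numbered 126 to 133 (3 sham and 5 TTX) from those numbered 134 to 145 (6 sham and 6 TTX), with scores from -22.8 to -11.5 in the lower set and from 5.64 to 19.8 in the higher. Of its variance, 92.8% lay between those 2 sets, and 4925 probe sets (26.4%) differed between them at an adjusted p under 0.05 in limma. That count only describes the size of the split, since the split was chosen from these values. The labels do not say what the numbers stand for. Because each set holds arrays of both groups, values within each set are given for several of the genes and groups below, and the medians of 15 of the 33 gene lists had opposite signs in the 2 sets. Sham and TTX had nearly the same mean on this component, at 0.73 ± 16.1 (SD, n = 9) and -0.60 ± 14.8 (SD, n = 11), with an exact two-sided permutation p of 0.871.

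**Figure D1:**
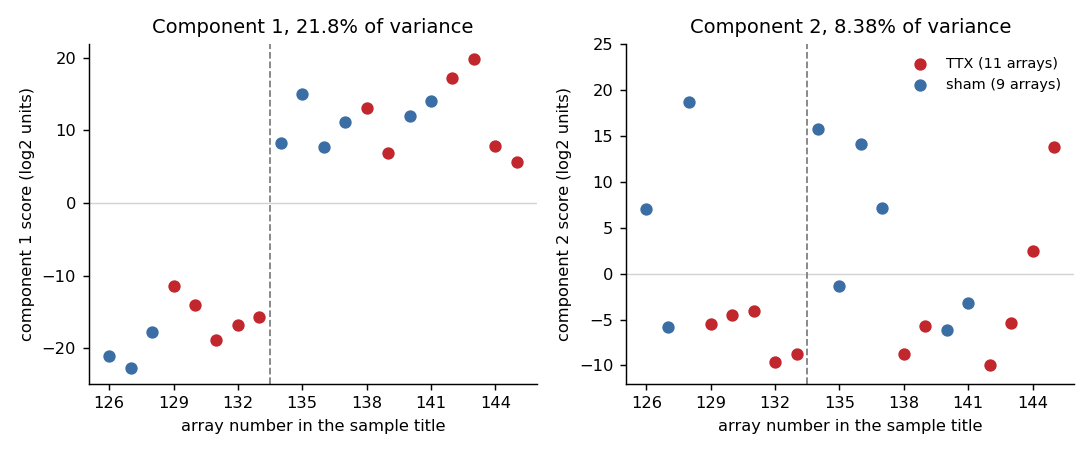
Scores of the 20 arrays on the first 2 principal components (vertical axes, log2 units) against the number in each array's title (horizontal axes), with TTX in red and sham in blue and a dashed line between numbers 133 and 134. All 8 arrays left of the line lie at or below -11.5 on the first component and all 12 right of it at or above 5.64, while on the second component 9 of the 11 TTX arrays lie below 0.

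A single sham array, number 128, stood apart in genes of the choroid plexus, the tissue in the ventricles that secretes cerebrospinal fluid. Transthyretin (Ttr), the thyroid hormone carrier made in large amounts by that tissue, was at 16.64 on this array. On the other 8 sham arrays it lay between 7.55 and 9.24, and on the TTX arrays its lowest, median and highest values were 7.63, 8.74 and 11.15, the last on the TTX array next in number. Enpp2, an enzyme that makes lysophosphatidic acid and is abundant in choroid plexus and in oligodendrocytes, was at 14.86 on array 128 against 12.65 to 13.00 on the other sham arrays. Htr2c, a serotonin receptor that choroid plexus also carries, was at 13.35 there against 11.69 to 12.40. The transcription factor Zic2 showed the reverse, with 6.82 against 8.22 to 9.33. Of the 18 genes on the choroid plexus and ependyma list, 4 were bright enough to test, so this tissue could be followed mainly through Ttr. Without array 128, 5 of the 250 named genes moved to an unadjusted p under 0.05 and 12 moved out of it, and the choroid plexus list went from 2 higher and 2 lower to 4 higher.

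**Figure D2:**
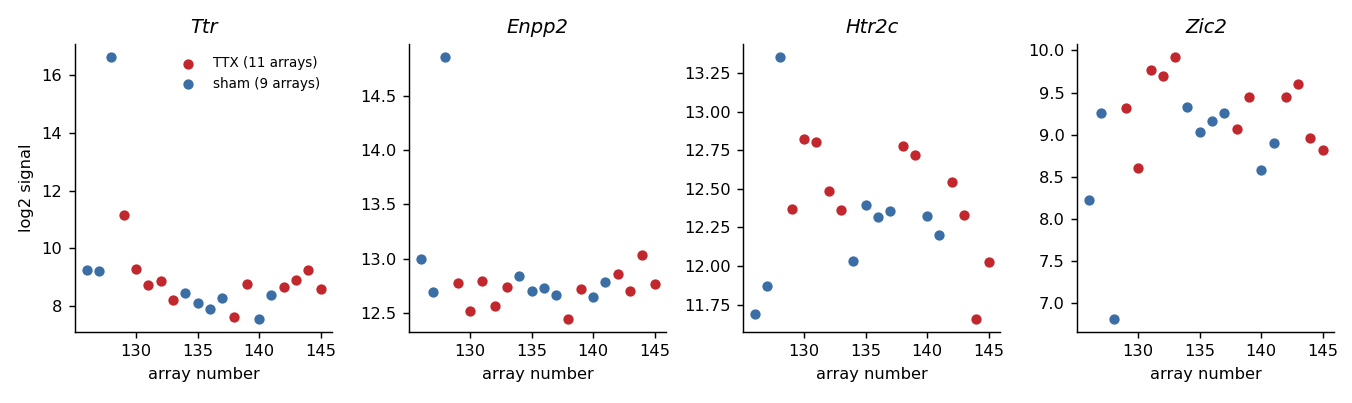
Log2 signal (vertical axes) of Ttr, Enpp2, Htr2c and Zic2 on each array against the number in its title (horizontal axes), TTX in red and sham in blue. Sham array 128 has the highest Ttr, Enpp2 and Htr2c and the lowest Zic2 of all 20 arrays.

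In the comparison of TTX with sham, no transcript passed the test. Of 18625 probe sets, 0 (0%) had an adjusted p under 0.05 in limma, 867 (4.66%) had an unadjusted p under 0.05, and the smallest adjusted p was 0.499. A limma fit with the 2 sets of numbers as a block, chosen after seeing the data, gave 1276 (6.85%) at unadjusted p under 0.05. Its smallest adjusted p was 0.541. There was also no probe set (0%) whose TTX values all lay on one side of its sham values. Of the 10153 genes, 5286 (52.1%) had a higher mean with TTX and 4867 (47.9%) a lower one, and at an unadjusted p under 0.05 these counts were 280 (2.76%) and 163 (1.61%). The median absolute difference was 0.055 and the median standard error 0.084.

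The arrays also bounded how large a difference could have been. For 17516 probe sets (94.0%) the whole 95% confidence interval of the difference lay within 0.5 log2 units of 0, and for 99.8% it lay within 1. The largest estimates were 0.91 above and -0.59 below sham, and 21 probe sets exceeded 0.5 in size. A doubling in frontal cortex was therefore outside the interval for 99.8% of the tested probe sets, whereas differences of 0.1 were close to the standard error. Estimates made within the lower and the higher set of numbers shared their sign for 52.9% of probe sets, with a correlation across probe sets of 0.053 (Spearman 0.078). Probe sets are not independent replicates, and this is a description only.

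Gnal had the smallest p of all. It encodes the alpha subunit of the stimulatory G protein Golf, which couples dopamine D1 and adenosine receptors to cAMP production in striatal neurons and odorant receptors in the nose. On the TTX arrays its lowest, median and highest values were 10.96, 11.28 and 11.79, and on the sham arrays 10.50, 10.89 and 11.05. All 11 TTX arrays lay above the sham mean and 9 lay above the highest sham array, so the groups overlapped in few arrays. The difference was 0.52 ± 0.098, a factor of 1.43, with a 95% interval from 0.32 to 0.72 and p = 2.68e-05, which after adjustment in limma was 0.499. It was 0.65 within the lower set of numbers and 0.44 within the higher. A second Gnal probe set differed by 0.15 ± 0.14 (p = 0.273), so the result rests on 1 of 2 probe sets.

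Zbtb42, a zinc finger repressor of transcription, came next. Its TTX values ran from 9.13 through a median of 9.56 to 9.87 and its sham values from 8.96 through 9.12 to 9.46. Of the 11 TTX arrays, 8 lay above every sham array, and the difference was 0.42 ± 0.089 (0.47 within the lower set of numbers and 0.37 within the higher). Faf1, an adaptor that links ubiquitin-marked proteins to the p97 segregase, had TTX values of 11.51, 11.63 and 11.76 and sham values of 11.20, 11.43 and 11.64 (lowest, median, highest). All TTX arrays exceeded the sham mean, 5 exceeded the highest sham array, and the difference was 0.24 ± 0.054. Dnai1, a dynein arm component of motile cilia, had TTX values from 9.02 through 9.46 to 9.93 against 8.84 through 9.07 to 9.24. Its lowest TTX arrays fell among the sham arrays and 9 lay above them, with a difference of 0.37 ± 0.096.

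Completing the 10 genes named for a higher mean were Atg12 (the ubiquitin-like conjugation factor of autophagy), Rbm34, Chst12 (a chondroitin sulfotransferase), Loricrin (an envelope protein of skin cells), Tbc1d32 (a cilium protein) and Rnf168 (a ubiquitin ligase of the DNA damage response). Over all 10 the differences ran from 0.17 to 0.52 and the adjusted p from 0.499 to 0.999 in limma. In 6 of the 10 genes all 11 TTX arrays lay above the sham mean. These genes had 6 further tested probe sets, belonging to 5 of them, which ranged from -0.10 to 0.15 with 0 at an unadjusted p under 0.05. For Atg12, the 2 other probe sets were at -0.06 and -0.02 against 0.18 for the brightest.

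On the lower side, Lrrc1, a leucine-rich repeat scaffold protein, had TTX values of 8.60, 8.95 and 9.68 and sham values of 9.16, 9.53 and 10.03 (lowest, median, highest). Of the TTX arrays, 8 lay below every sham array, and the difference was -0.52 ± 0.13 (adjusted p = 0.999). Khnyn, a ribonuclease that acts as antiviral cofactor, had TTX values of 8.63, 9.23 and 9.69 against 9.21, 9.66 and 9.85. The difference was -0.49 ± 0.13, with 5 TTX arrays below every sham array and the others among them. Tm9sf3, a Golgi membrane protein, was at -0.30 ± 0.080 with all 11 TTX arrays below the sham mean, but its 2 other probe sets were at 0.01 and 0.05.

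Also among these 10 were Abcb9 (a lysosomal peptide transporter), Kdm3b (a histone H3 lysine 9 demethylase), Rreb1 (a zinc finger factor of Ras signalling), Tom1l1 (an endosomal sorting adaptor), Mgst1 (a microsomal glutathione transferase), Apbb2 (a binding partner of the amyloid precursor protein) and Ntaq1 (an amidase of N-terminal glutamine). Their differences ran from -0.42 for Ntaq1 to -0.17 for Apbb2. The 4 tested Apbb2 probe sets were all below 0, at -0.24, -0.17, -0.09 and -0.08.

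**Figure D3:**
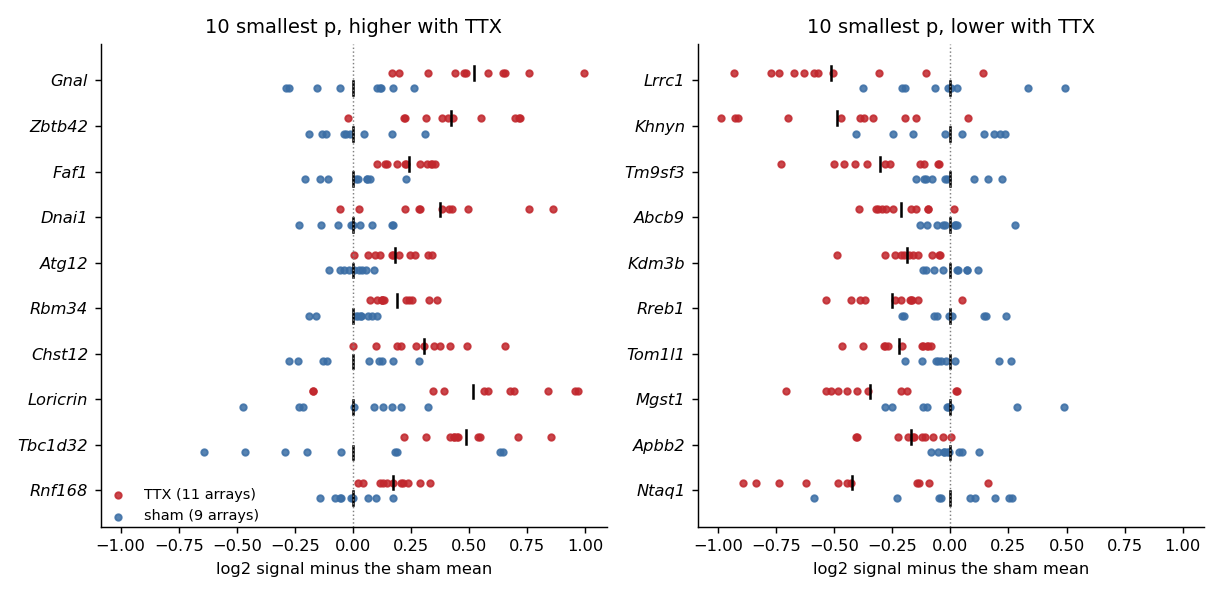
Log2 signal minus the sham mean (horizontal axes) for the 10 genes with the smallest p higher with TTX (left) and lower with TTX (right), with 1 dot per array (TTX in red, sham in blue) and a black bar at each group mean. The groups overlap for every gene shown, and Gnal has 9 of 11 TTX arrays beyond the highest sham array.

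Activity-regulated transcription factors, which neurons switch on within minutes of strong firing, were the first group considered. Of 15 tested members, 11 had a higher mean and 4 a lower mean with TTX, with a median difference of 0.13, against 52.1% higher and a median of 0.004 over all tested genes. No member passed the test after adjustment, and 1 had an unadjusted p under 0.05. That gene was Junb, a subunit of the AP-1 factor, whose TTX values were 10.06, 10.57 and 11.05 and sham values 9.90, 10.27 and 10.69 (lowest, median, highest). The groups overlapped broadly, with 4 TTX arrays above every sham array, and the difference was 0.29 ± 0.13 (p = 0.0310, adjusted p = 0.999).

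Fos, another AP-1 subunit, varied widely. Its TTX values ran from 9.30 through 10.52 to 11.62 and its sham values from 9.58 through 9.87 to 10.90. TTX arrays held both the highest and the 2 lowest values, and the difference was 0.23 ± 0.26, with -0.42 within the lower set of numbers and 0.59 within the higher. The orphan nuclear receptor Nr4a1 was at 0.26 ± 0.13 (unadjusted p = 0.0693 in limma, and 0.0218 without sham array 128). Nr4a2 was at 0.28 ± 0.17 (0.82 within the lower set of numbers and -0.009 within the higher) and Ier2 at 0.22 ± 0.15. Egr1, which is bright in cortex at rest, was at -0.07 ± 0.12 and the cAMP-responsive repressor Crem at -0.13 ± 0.078. The group median was -0.02 within the lower set of numbers and 0.10 within the higher, so the 2 sets did not give it 1 sign. Without sham array 128 it was 0.14, again with 11 higher and 4 lower.

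Slower effectors of activity, the genes through which firing reaches synapses and secreted signals, were 13 higher and 7 lower of 20 with a median of 0.02, and 11 and 9 without sham array 128. Arc, which drives internalisation of AMPA receptors, had TTX values of 10.18, 11.14 and 11.92 against 10.22, 10.99 and 11.58 and a difference of 0.32 ± 0.20. Its values covered almost the same range in both groups, and without sham array 128 the difference was 0.41, with p going from 0.120 to 0.0459 unadjusted in limma. Dusp1, a phosphatase that shuts down MAP kinases, was at 0.21 ± 0.10 (p = 0.0467) on its brightest probe set and at -0.08 ± 0.17 on the other. The brightest one was at -0.09 within the lower set of numbers and 0.37 within the higher. Inhba, an activin subunit, was at -0.22 ± 0.13. Bdnf, the neurotrophin most tied to cortical activity, was at -0.06 ± 0.15. Homer1, a scaffold of metabotropic glutamate receptors whose short form is activity-induced, was lower on all 5 of its tested probe sets, from -0.31 to -0.05. On 2 of the 5 the unadjusted p was under 0.05. The probe set at -0.31, 1 of those 2, was at 0.02 within the lower set of numbers and -0.53 within the higher. Another, at -0.13 over all arrays, was at 0.01 and -0.17.

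Many of these genes are switched on through the cAMP response element, the DNA site bound by CREB. RefSeq start sites on the GRCr8 build gave 1 upstream window of 250 bases for 14 of the 22 listed transcription factors and 19 of the 25 listed effectors. The full 8-base palindrome TGACGTCA was present in 3 of the 14 (21.4%) and 4 of the 19 (21.1%), and in 1.59% of all 33469 windows. The 5-base core TGACG, searched on both strands and contained in the full site, was present in 10 of 14, 10 of 19 and 18.2% of all. Of the 7 genes with the full site, 6 were tested, and 5 had a higher and 1 a lower mean with TTX. The effectors Plk2, Scg2 and Vgf were near 0, at 0.02 ± 0.047, 0.04 ± 0.070 and -0.04 ± 0.083. The windows of the 2 transcription factors that were tested, Ier2 and the AP-1 subunit Jund, and of Dusp1, the effector with the largest difference of the 4 that hold the site, are shown with the site in capitals. They were chosen after their values were seen. The windows are chr10:17184603-17184852 on the plus strand for Dusp1, chr19:40399123-40399372 on the plus strand for Ier2 and chr16:18769772-18770021 on the minus strand for Jund.
Dusp1: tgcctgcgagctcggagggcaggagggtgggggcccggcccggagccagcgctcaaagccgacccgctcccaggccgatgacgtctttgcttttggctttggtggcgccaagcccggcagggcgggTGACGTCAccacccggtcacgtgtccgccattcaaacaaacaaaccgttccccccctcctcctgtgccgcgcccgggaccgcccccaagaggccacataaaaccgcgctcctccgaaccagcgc
Ier2: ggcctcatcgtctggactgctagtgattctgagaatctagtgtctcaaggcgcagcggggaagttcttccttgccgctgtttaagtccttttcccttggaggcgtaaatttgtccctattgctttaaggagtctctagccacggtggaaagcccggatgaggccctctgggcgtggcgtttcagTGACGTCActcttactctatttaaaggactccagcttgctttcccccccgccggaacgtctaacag
Jund: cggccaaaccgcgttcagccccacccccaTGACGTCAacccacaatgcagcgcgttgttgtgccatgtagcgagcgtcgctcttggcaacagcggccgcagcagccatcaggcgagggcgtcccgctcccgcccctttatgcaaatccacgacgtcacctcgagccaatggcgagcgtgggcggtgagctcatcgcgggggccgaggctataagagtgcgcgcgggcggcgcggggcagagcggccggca
Counted back from the start, the site begins 124 bases upstream in Dusp1 (TTX minus sham 0.21 ± 0.10), 66 in Ier2 (0.22 ± 0.15) and 221 in Jund (0.07 ± 0.059). None of the 3 passed the test, and Dusp1 had opposite signs in the 2 sets of numbers. A match does not show that a factor binds there.

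The molecular targets of TTX are themselves expressed in cortex. Of 7 tested sodium channel genes 3 had a higher and 4 a lower mean, with a median of -0.03, and 0 had an unadjusted p under 0.05. The list includes the auxiliary subunits Scn2b, Scn3b and Scn4b, which do not form the pore that TTX plugs. Scn1a, the channel of fast-spiking interneurons, had TTX values of 14.02, 14.23 and 14.66 and sham values of 14.03, 14.31 and 14.58, which span the same range. Its difference was -0.03 ± 0.081, that of Scn2a -0.07 ± 0.052 and that of Scn8a, the main channel of the axon initial segment, -0.10 ± 0.12. Partners that hold these channels at the initial segment were lower in 8 of 10 genes, with a median of -0.04. Over all tested genes 47.9% were lower. Within the lower and the higher set of numbers alike, 6 partners were lower and 4 higher, and 0 of the lower ones over all arrays had an unadjusted p under 0.05. Among the partners lower over all arrays were ankyrin G (Ank3, -0.06 ± 0.085) and neurofascin (Nfasc, -0.09 ± 0.062). Fgf14, which binds the tail of sodium channels, was higher, at 0.24 ± 0.11 (p = 0.0352), with 0.02 within the lower set of numbers and 0.33 within the higher.

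Potassium and HCN channels, which set resting potential and repolarisation, were split 14 higher to 16 lower with a median of -0.03. Kcnj9, a subunit of the G protein-gated inward rectifier, had TTX values of 10.76, 11.13 and 11.36 and sham values of 10.46, 10.77 and 11.18. All 11 TTX arrays exceeded the sham mean and 4 exceeded every sham array, at a difference of 0.31 ± 0.092 (p = 0.00303, adjusted p = 0.999), with 0.12 within the lower set of numbers and 0.39 within the higher. Hcn2 and Hcn3, pacemaker channels opened by hyperpolarisation and cAMP, were at 0.21 ± 0.092 and 0.22 ± 0.10 (unadjusted p = 0.0329 and 0.0377 in limma, and 0.0670 and 0.0870 without sham array 128). Kcnc1, the Kv3.1 channel that lets interneurons fire fast, had 9 of 11 TTX arrays below the lowest sham array and 1 above the highest, with a difference of -0.16 ± 0.053 (p = 0.00583). Its lowest, median and highest values were 12.95, 13.09 and 13.40 with TTX and 13.22, 13.27 and 13.39 in sham.

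Receptors of glutamate and GABA were nearly even. NMDA receptor genes were 3 higher and 3 lower, AMPA and kainate receptor genes 7 and 5, metabotropic glutamate receptors 3 and 3, and GABA receptors 5 and 5, and their medians lay between 0.001 and 0.02. The NMDA list counts Grina, which is not itself a receptor subunit, among its 3 higher genes. The NMDA median was 0.09 within the lower set of numbers and -0.05 within the higher. Among single subunits, Grin1, shared by all NMDA receptors, was at 0.03 ± 0.074, Grin2a at -0.20 ± 0.13 and Grin2b at -0.10 ± 0.082. A second probe set had the other sign for Grin2b, at 0.17 ± 0.094, and for Grin1, at -0.05 ± 0.12. For AMPA receptors, Gria1 was at 0.01 ± 0.093, Gria2 at 0.007 ± 0.046 and the auxiliary subunit Cnih2 at 0.17 ± 0.068 (p = 0.0170). In the lower set of numbers Cnih2 was 13.79 to 14.01 with TTX and 13.35 to 13.69 in sham. In the higher set it was 13.57 to 13.82 and 13.52 to 13.74. Gabra5, the subunit of extrasynaptic GABA-A receptors, had TTX values of 12.37, 12.87 and 13.23 and sham values of 12.45, 12.62 and 12.73. There 7 TTX arrays lay above every sham array and 1 below every one, with 0.45 within the lower set of numbers and 0.003 within the higher. Synaptic genes gave 18 higher and 9 lower of 27 for presynaptic release (median 0.005) and 10 and 16 of 26 for the postsynaptic density (median -0.01).

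Genes of GABA neurons, which include the interneurons that receive hippocampal input, were 9 higher and 7 lower with a median of 0.02. The GABA-synthesising enzyme Gad1 was at -0.06 ± 0.049, parvalbumin (Pvalb) at -0.04 ± 0.077, somatostatin (Sst) at 0.10 ± 0.085 and neuropeptide Y (Npy) at 0.06 ± 0.040. Calretinin (Calb2) was at 0.32 ± 0.15 (p = 0.0439), but at 0.71 within the lower set of numbers and 0.08 within the higher, and without sham array 128 its p was 0.1003. Cortical layer genes were 11 higher and 12 lower. The glutamate transporter Slc17a7 lay between 13.98 and 15.05 on every array, read from its brightest probe set, and the astrocyte filament Gfap between 13.85 and 14.57. Neither gene is particular to frontal cortex, so these values do not check the dissection.

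Dopamine and cAMP genes, the setting in which Gnal acts, were mostly on its side of 0. Dopamine signalling genes were 8 higher and 3 lower (median 0.07), cAMP signalling genes 20 higher and 7 lower (median 0.03), and striatal neuron markers 14 higher and 4 lower (median 0.04), and Gnal counts in all 3 lists. Within the lower set of numbers dopamine genes were 9 higher and 2 lower (median 0.14) and cAMP genes 17 and 10 (median 0.09), and within the higher set 6 and 5 (median 0.04) and 14 and 13 (median 0.01). Striatal markers were 12 and 6 in both sets. Apart from Gnal, 1 cAMP gene had an unadjusted p under 0.05 on the higher side, Prkar1b, a regulatory subunit of protein kinase A, at 0.12 ± 0.050 (p = 0.0279, and 0.0689 without sham array 128). The dopamine receptors Drd1 and Drd2 were at 0.18 ± 0.17 and 0.18 ± 0.18, and DARPP-32 (Ppp1r1b) at 0.09 ± 0.073. Sham array 127 was low for Drd1, at 8.94 against 9.77 to 10.47 on the other sham arrays, and for the mean of the striatal list. These counts were not taken again without array 127, while the list medians were refitted without each array in turn, as given below. Serotonin and adrenergic receptors were 8 higher and 2 lower (median 0.07).

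Myelin genes lay mostly on the lower side. Of 25 tested oligodendrocyte and myelin genes, 22 had a lower and 3 a higher mean with TTX, with a median of -0.13, against 47.9% lower over all genes. The largest fall on the list was that of Enpp2, at -0.27 ± 0.20, which was -0.04 without sham array 128. Again no member passed after adjustment, and 1 had an unadjusted p under 0.05, Cspg4, the NG2 proteoglycan of oligodendrocyte precursors and pericytes, at -0.24 ± 0.12 (p = 0.0497, and 0.0529 without sham array 128). Mog, a protein of the outer myelin surface, had TTX values of 12.29, 12.65 and 13.01 and sham values of 12.54, 12.83 and 13.33. Just 2 TTX arrays lay below every sham array, and the difference was -0.20 ± 0.10. Aspa, which splits N-acetylaspartate for myelin lipids, was at -0.19 ± 0.097 and the major myelin protein Mbp at -0.04 ± 0.052. The precursor factor Olig2 was on the other side, at 0.32 ± 0.19. In the lower set of numbers it was 8.91 to 9.57 with TTX and 7.98 to 8.60 in sham, and in the higher 9.02 to 9.54 and 8.72 to 9.62.

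The mean of all 25 genes, Enpp2 among them, was also taken on each array, relative to the average array. It ran from -0.37 through -0.06 to 0.25 in TTX and from -0.13 through 0.08 to 0.27 in sham (lowest, median, highest), and 9 of 11 TTX arrays lay below the sham mean. The groups overlapped over most of that range. The median difference was -0.18 within the lower set of numbers, -0.09 within the higher and -0.10 without sham array 128, with 22 of 25 lower again in the last case. The mix of grey and white matter in each sample was not measured, and its part in these values was not tested.

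Several other non-neuronal lists had more members lower than higher. Astrocyte genes were 3 higher and 17 lower of 20 with a median of -0.03, and Gfap was at -0.02 ± 0.081. Meningeal and fibroblast genes were 4 higher and 15 lower (median -0.03), and 7 and 12 without sham array 128. Endothelial and mural genes were 7 higher and 14 lower (median -0.07), with -0.17 within the lower set of numbers and 0.0006 within the higher. Of the 3 at an unadjusted p under 0.05, which include Cspg4, Rgs5, a regulator of G proteins in pericytes, was at -0.17 ± 0.062 (p = 0.0131) and Kdr, the VEGF receptor of endothelium, at -0.23 ± 0.11 (p = 0.0380). The tight junction protein Cldn5 was at -0.02 ± 0.070. Microglia and immune genes were 10 higher and 7 lower (median 0.03, with 0.07 in the lower and -0.04 in the higher set of numbers), with the microglial marker Aif1 at 0.02 ± 0.095, and haemoglobin beta (Hbb) was at 0.07 ± 0.11.

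Markers of the olfactory bulb and claustrum, which lie near the frontal cortex, were 6 higher and 1 lower of 7, with a median of 0.23. It was 0.45 within the lower set of numbers, 0.06 within the higher and 0.14 without sham array 128. Synpr, a synaptic vesicle protein, was at 0.23 ± 0.083 (p = 0.0105), with 8 TTX arrays above every sham array and 1 below. Its values were 13.63, 14.07 and 14.34 with TTX and 13.69, 13.77 and 13.91 in sham. The part of the borders of the dissection in the neuronal results was not tested.

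Housekeeping groups stayed near 0. Respiratory chain genes were 36 higher and 30 lower (median 0.01), cytosolic ribosomal proteins 20 and 19 (median 0.0007) and proteasome subunits 25 and 11 (median 0.009). Stress and hormone genes were likewise small, with 8 higher and 14 lower for heat shock and the unfolded protein response (median -0.02), 9 and 6 for glucocorticoid response (median 0.02) and 7 and 11 for the circadian clock (median -0.03, with -0.09 in the lower and 0.03 in the higher set of numbers). Sterol synthesis genes were 13 and 9 (median 0.01). In that list Mvd and Msmo1, 2 enzymes of the same pathway, stood on opposite sides at 0.26 ± 0.10 and -0.13 ± 0.060. Neurotrophins and their receptors were 6 and 7 (median -0.003).

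**Figure D4:**
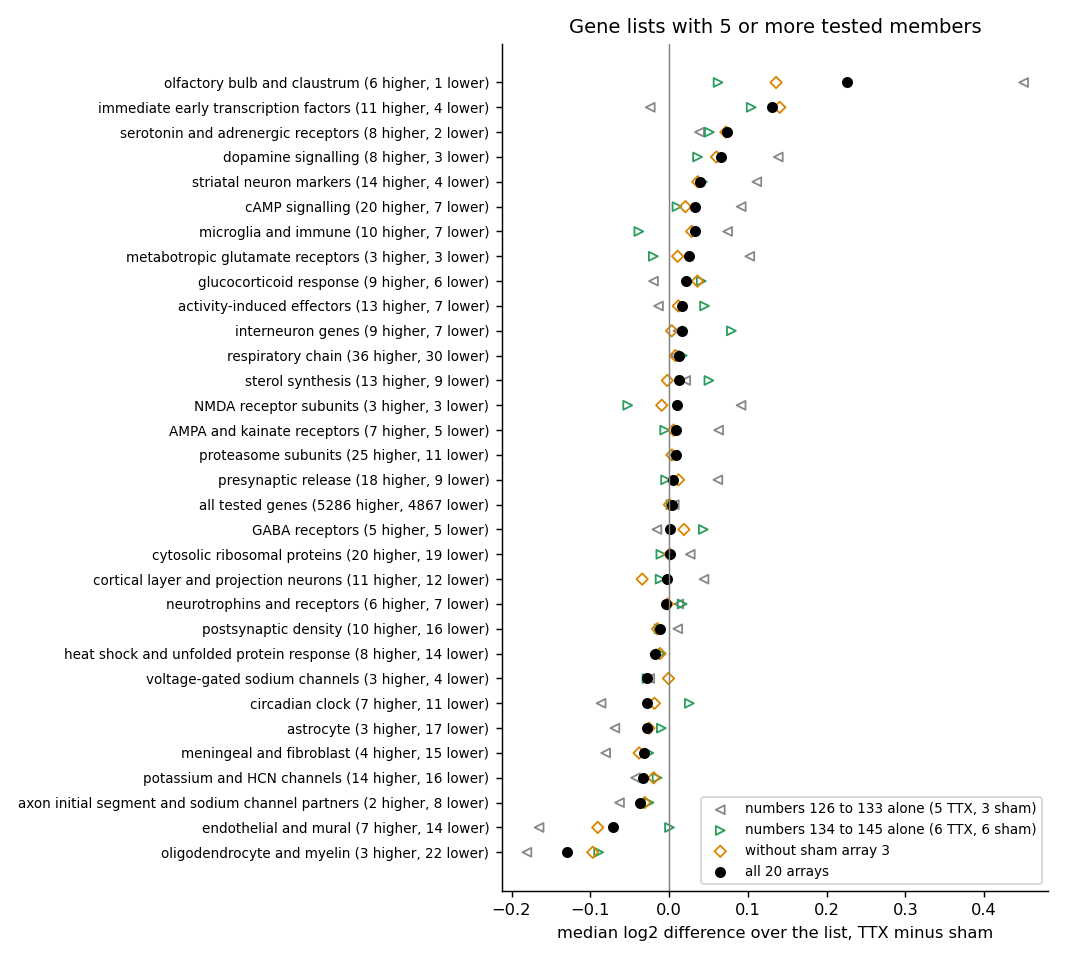
Median log2 difference of each gene list, TTX minus sham (horizontal axis), for all 20 arrays (black), the 2 sets of array numbers taken alone (triangles) and all arrays but number 128, the legend's sham array 3 (diamonds), with the counts of members higher and lower beside each name. Oligodendrocyte and myelin genes lie below 0 in all 4 estimates, at -0.13 over all arrays, while immediate early transcription factors lie on both sides of 0 in the 2 sets.

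The second principal component held 8.38% of the variance and came closest to the groups. TTX arrays had a mean score of -4.19 ± 6.93 (SD, n = 11) and sham arrays 5.13 ± 9.63 (SD, n = 9). TTX scores ran from -9.99 to 13.8 with a median of -5.44, and sham scores from -6.14 to 18.7 with a median of 7.06, so the groups overlapped: 4 of 9 sham arrays lay below 0 and 2 of 11 TTX arrays above it. An exact permutation of the group labels, two-sided, gave p = 0.0231, or 0.0693 adjusted over 3 components. The difference was -13.1 within the lower set of numbers and -6.65 within the higher. Without sham array 128 it went from -9.32 to -6.26 and the p to 0.149 (0.446 adjusted). The adjusted p was instead 0.0465 without sham array 127, 0.0321 without 140, 0.0474 without 141 and 0.0446 without TTX array 145, so its side of 0.05 depended on single arrays. The third component did not separate the groups (p = 0.948).

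The genes with the largest weight on the sham side of that component were Ttr, Igfbp6 (an IGF-binding protein), Tagln (a smooth muscle actin-binding protein), Mcam (an adhesion protein of vessel walls), Enpp2, Lims2, Ube3al1 and Tnnt2. On the TTX side they were Pxmp4 (a peroxisomal membrane protein), Zic2, Aard, Cacng8 (an AMPA receptor auxiliary subunit), Ctns (the lysosomal cystine transporter), Cacna1h (a T-type calcium channel), St6galnac5 and Gnal. Weights lay on the sham side for all 25 myelin genes, all 19 meningeal genes, 18 of 20 astrocyte genes and 35 of 39 ribosomal protein genes, beside 47.8% of all tested genes. Pxmp4 had the largest difference among the genes named here, 0.81 ± 0.41. Its sham values ran from 7.59 to 11.56, a wider range than the 10.38 to 11.81 with TTX. It was 2.30 within the lower set of numbers and -0.03 within the higher.

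Whether TTX made arrays more or less alike was tested on the distance of each value from its group median. No probe set (0 of 18625, 0%) passed in limma, where the smallest adjusted p was 0.9999, and 469 (2.52%) had an unadjusted p under 0.05, 273 wider and 196 narrower with TTX. The median SD was 0.19 with TTX and 0.18 in sham. Among the genes with the smallest p, C1qtnf5, a secreted C1q-like protein, had an SD of 0.041 with TTX and 0.23 in sham, and Tpp2, a peptidase, 0.092 and 0.24. On the wider side, Rwdd2b had 0.23 and 0.037, and Meis2, a homeobox factor, 0.24 and 0.076. These SDs take in the split between the 2 sets of numbers, which this test left in. For Meis2, TTX values were 13.20 to 13.44 in the lower set and 12.74 to 13.14 in the higher. For C1qtnf5, sham values were 11.01 to 11.26 in the lower set and 10.57 to 11.02 in the higher.

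The lesion experiment replaced the toxin with a lesion of the same structure, and has sham arrays of its own. In 1 fit over all 42 arrays the lesion effect minus the TTX effect passed for 0 of 18625 probe sets (0%), the smallest adjusted p being 0.622, while 1179 (6.33%) had an unadjusted p under 0.05. Across probe sets the 2 effects had a correlation of -0.045 (Spearman -0.038), given as a description. The 10 genes highest by p with TTX had lesion differences from -0.19 to 0.10, 6 above and 4 below 0. Gnal was at -0.01 ± 0.11 there and Zbtb42 at -0.13 ± 0.090. Of the 10 on the lower side, 7 were lower and 3 higher with the lesion. Tm9sf3 was lower in both on its brightest probe set, at -0.24 ± 0.072 with the lesion. Its other tested probe sets were at 0.06 ± 0.078 and 0.006 ± 0.15 with the lesion.

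Among the gene groups, myelin genes were lower in 23 of 25 cases with the lesion (median -0.11), beside 22 of 25 with TTX, where 48.5% of all genes were lower with the lesion. Immediate early transcription factors were 3 higher and 12 lower with the lesion (median -0.13), beside 11 and 4 with TTX. Of these, Egr1 was at -0.45 ± 0.11 with the lesion and -0.07 ± 0.12 with TTX, and Nr4a1 at -0.30 ± 0.17 and 0.26 ± 0.17, in the fit over both experiments. The difference between the 2 effects had an unadjusted p under 0.05 for 4 of the 15, beside 6.37% of all genes, and an adjusted p of 0.733 for Egr1 and 0.740 for Nr4a1. Hcn2 was at -0.36 ± 0.10 with the lesion and 0.21 ± 0.11 with TTX in that fit, with an unadjusted p of 0.000308 and an adjusted p of 0.703 for the difference. None of these 3 genes passed after adjustment.

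**Figure D5:**
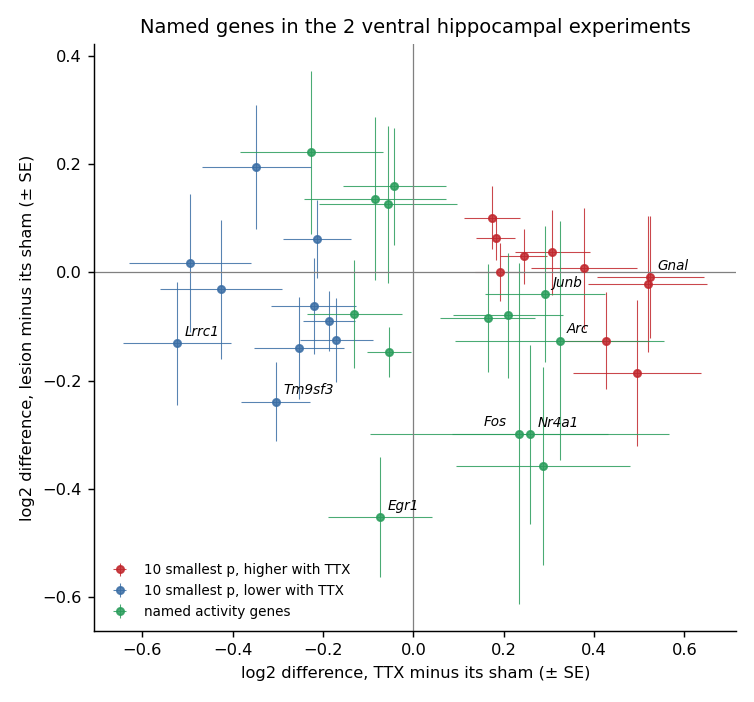
Log2 difference from each experiment's own sham group, with TTX on the horizontal and the lesion on the vertical axis, for the 20 genes with the smallest p in the TTX comparison (red and blue) and the named activity genes (green), each with its SE as bars. The red and blue genes spread along the horizontal axis because they were chosen on it, and Gnal lies at 0.52 and -0.01.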

How the data were processed

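Gene expression in rat frontal cortex was measured on Affymetrix arrays, and the deposited values are 1 linear intensity per probe set and array. How the authors summarised and scaled them is not given in the sources used here, but the deposited intensities of all 20 arrays share a 2% trimmed mean between 2500.67 and 2500.75, so each array had been scaled. Median intensity ran from 806 to 913, and the number of arrays limits the precision. Intensities were quantile-normalised over the 20 arrays, raised to a floor of 32 (under which 6.16% of values lay) and taken to log2. After removal of 57 control probe sets, the 60% with the highest mean were kept, 18625 of 31042. Of all non-control probe sets, 20826 carry 1 gene symbol in the platform annotation, 436 several and 9780 none, and a gene is read from its brightest probe set with 1 symbol.

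Groups were compared with limma 3.58.1 in R 4.3.3 (lmFit, eBayes), with Benjamini-Hochberg adjustment over all tested probe sets and a call at an adjusted p under 0.05. The lesion comparison used 1 fit over both experiments with an interaction contrast, normalised together. Principal components were compared by exact two-sided permutation of the 20 arrays (167960 arrangements), adjusted over 3. The fit was tested on simulated data. Genes named are the 10 with the smallest p on each side, up to 3 per side from each of 33 lists, 30 genes of prior interest, the 5 with the smallest p per side for spread and the 8 with the largest loading per side of 2 components. The genes and lists were chosen with earlier results of these data known. The list genes number 777, of which 594 were tested. Promoter windows came from RefSeq tables, read with Python 3.11.15 and pandas 2.3.3, and figures were drawn with matplotlib 3.10.9. Alternatives covered the normalisation, floor, filter, array weights, title-number covariates and leaving out each array.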

Additional observations from a re-analysis of the deposited data

Results flagged for a closer look

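Within the 9 sham arrays, 250 named genes, 33 list means and 3 components were scanned for a single array far from the others, and 17 were found. Chance gives such a gap in about 1 in 20 groups. Over all items scanned, that rate gives a number close to 17, so the count alone is no evidence of outlying arrays. Enpp2 and Zic2 were named only for their weight on the second component, and Nol12 and Syngr1 only for theirs on the first. These genes were therefore not picked independently of the array values. The 11 TTX arrays were too many for the same rule.

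Sham array 128 held 5 of them. Its log2 signal was 16.64 for Ttr, 14.86 for Enpp2, 13.35 for Htr2c and 6.82 for Zic2, and its mean over the choroid plexus and ependyma list was 2.24 above the average array, where the other sham arrays lay between -0.60 and 0.11.

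Sham array 127 held 6. Drd1 was low at 8.94 and Errfi1, a feedback inhibitor of EGF receptors, high at 12.09. Nol12, a nucleolar protein, was at 7.36 against 8.89 to 9.51 on the others, and Syngr1, a synaptic vesicle protein, at 6.76 against 8.50 to 10.21. Its list means were lowest for striatal neuron markers, at -0.26, and for sterol synthesis, at -0.19.

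The remaining 6 lay on 4 arrays. Cox7b, a subunit of cytochrome oxidase, was at 15.98 on sham array 126. Nrg2, a neuregulin, was at 8.55 and the proteasome subunit Psmd1 at 12.79 on sham array 135. Abcb9 was at 11.08 on sham array 136, which is the highest sham value of a gene listed above as lower with TTX. Homer1 was at 14.34 and Vgf, a neuropeptide precursor, at 12.35 on sham array 141, the lowest sham values of both.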

How the results depend on the processing

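The count of 0 called probe sets held under all 12 other settings and in all 20 fits that each left out 1 array. The smallest adjusted p in limma was 0.113 to 0.9997 over those settings and 0.179 to 0.99996 with 1 array left out, and unadjusted p-values under 0.05 numbered 737 to 1068 in the latter. With the title number as a covariate 1925 probe sets (10.3%) had an unadjusted p under 0.05 in limma, against 867 (4.66%) without it. With blocks of title numbers in the fit instead, they numbered 1217 to 1277 (6.53% to 6.86%). The 2 sets of title numbers as a block, and leaving out sham array 128 with TTX array 129, were chosen after seeing the data. The share of probe sets with an interval inside 0.5 was 98.4% and that inside 1 was 99.9% with the 40% filter, which tests fewer and brighter probe sets, and the share inside 0.5 was 95.04% with the 2 sets as a block. With 1 array left out these shares were 92.5% to 93.9% and 99.7% to 99.8%, from fewer samples. The difference on the second component ran from -10.9 to -6.26 with 1 array left out. Of 250 named genes, 43 changed sign under some other setting and 30 when 1 array was left out. None of the 20 with the smallest p in the main comparison did, but they were chosen for differences large against their standard errors. Their signs could therefore hardly change, and this is no evidence that they are more stable. No median of a gene list moved by more than the SD of the list mean among arrays. Leaving out 1 array can hardly move a median that far, so this check is weak. The choroid plexus median went from -0.03 to 0.25 without array 128, which itself widens that SD. The meningeal and fibroblast median went from -0.03 to 0.0009 without arrays 128 and 129. The choroid plexus list had no member under the 40% filter, so it has no value there. No paired analysis was possible because the labels give TTX and sham arrays no shared replicate numbers.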
